A study of Homo sapiens with 6 samples.

Results

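Lysosomes hold the enzymes with which a cell breaks down proteins, lipids and sugars, and 35 genes of this organelle were followed here in LN-229 cells. The genes were chosen by name: 23 encode soluble proteins of the lysosomal lumen, 6 encode proteins of its membrane, 5 encode parts of its proton pump, and TFEB encodes a transcription factor of lysosome genes. All 35 had a row among the 58174 genes of the deposited tables. No measured value was a criterion of the choice, but earlier results of these data were known when it was made.

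LN-229 is an established human glioblastoma cell line. Cells treated with sh-JMJD1C, which usually stands for a short hairpin RNA against JMJD1C, gave 3 libraries, and cells treated with control-NC gave 3 more. In both groups the sequenced RNA was nuclear-enriched and cleared of ribosomal RNA. JMJD1C belongs to the JmjC family of histone demethylases, and the series asks which genes it targets. The labels give no number of hairpins, no time after treatment, and no word on whether replicates were separate cultures, so that p-values measure only the spread between these libraries.

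Hydrolases reach the lysosome through the secretory pathway, mostly carrying a mannose 6-phosphate tag, and act at the acid pH that the vacuolar proton pump sets up. Heavily glycosylated membrane proteins line the organelle, and transporters and channels in the same membrane release the products of digestion and ions. TFEB binds a palindromic motif around CACGTG in the promoters of many lysosome genes when nutrients are scarce or lysosomes are damaged. Glioblastoma cells are known for high levels of several cathepsins, the proteases of the lysosome.

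The level of JMJD1C itself did not overlap between groups, and all sh-JMJD1C libraries were lower. Its level was 43.1, 10.97 and 28.1 scaled RPM in sh-JMJD1C 1 to 3, against 168.5, 93.1 and 170.6 in control-NC 1 to 3, where RPM are reads scaled to library depth, here brought to a common scale by median-ratio factors. The mean in sh-JMJD1C libraries was 19.0% of the control-NC mean. On whole reads recovered from the deposited FPKM (fragments scaled to gene length and library depth), the difference was -2.49 on the log2 scale (SE 0.51, limma-voom adjusted p = 0.0253). On log2(FPKM + 0.5) limma gave -1.82 (SE 0.41, adjusted p = 0.118), which does not pass the threshold of 0.05. Without sh-JMJD1C 2, sh-JMJD1C 3, control-NC 1 or control-NC 3 the adjusted p on reads was 0.0631 to 0.115. The two-sided exact permutation test gave p = 0.1, the smallest that 3 against 3 allows.

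The libraries were shallow and uneven, which bears on every value that follows. They held 1660582 to 1919676 reads in the sh-JMJD1C group and 544450 to 2960509 in the control-NC group, with control-NC 1 the smallest. Reads on RN7SL genes, which make the RNA part of the signal recognition particle, were 1.18%, 15.7% and 18.5% of the total in sh-JMJD1C 1 to 3 and 0.378%, 0.59% and 1.77% in control-NC 1 to 3. Mitochondrial genes took 12.6% of reads in sh-JMJD1C 1 and 1.33% and 1.7% in sh-JMJD1C 2 and 3, against 2.93% to 8.7% in control-NC libraries. MALAT1, a nuclear non-coding RNA, took 0.292%, 0.0915% and 0.185% in sh-JMJD1C 1 to 3 and 1.73%, 1.25% and 2.4% in control-NC 1 to 3. The groups did not overlap in the share of MALAT1. Whether nuclear enrichment differed between groups, and its part in the values of lysosome genes, was not tested. In control-NC 1, 25.0% of reads fell on a single non-coding gene, ENSG00000281181. VIM, CD44 and EGFR, which the cell line is known to express, had 8970, 3231 and 9996 reads over the 6 libraries. EGFR had 1327, 435 and 382 reads in sh-JMJD1C 1 to 3 and 545, 2833 and 4474 in control-NC 1 to 3. Other markers listed for a glioblastoma line were low or absent. SOX9 had 97 reads, NES 35, GFAP 15 and SOX2 2, and S100B and OLIG2 had 0. Of 8 markers of immune, epithelial, endothelial and red blood cells, 3 had no read and the highest had 19 reads over all libraries. The summed reads of these markers were 11, 3 and 3 in sh-JMJD1C 1 to 3 and 3, 12 and 14 in control-NC 1 to 3. In bulk RNA, a change in the number of cells that use a gene cannot be told apart from a change in its RNA per cell.

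The 35 lysosome genes together took 0.299%, 0.361% and 0.354% of reads in sh-JMJD1C 1 to 3 and 0.22%, 0.353% and 0.364% in control-NC 1 to 3. With CD63 left out, the share was 0.275%, 0.272% and 0.259% in the sh-JMJD1C libraries and 0.213%, 0.338% and 0.338% in the control-NC libraries. CD63 alone made up 8.02%, 24.6% and 26.7% of these lysosome reads in sh-JMJD1C 1 to 3, against 3.09%, 4.22% and 7.3% in control-NC 1 to 3. The groups did not overlap in that share.

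Per kilobase of the longest annotated transcript, which allows levels to be compared between genes, CD63 stood first in the sh-JMJD1C libraries at 675 ± 425 scaled RPM (SD, n = 3). PSAP, the precursor of the saposins that help enzymes to digest sphingolipids, followed at 215 ± 84.7, CTSZ at 112 ± 19.6, NPC2 at 110 ± 35.5 and CTSL at 99.5 ± 37.2. In control-NC libraries PSAP stood first at 237 ± 17.1, followed by CD63 at 106 ± 46.5, CTSZ at 94.1 ± 33.7, CTSL at 83.1 ± 8.7 and NPC2 at 44.0 ± 16.4. The same 5 genes led in both groups. The neighbours CTSZ, NPC2 and CTSL did not differ beyond their spread in sh-JMJD1C libraries, nor did CD63, CTSZ and CTSL in control-NC libraries. ATP6V0C and CTSC stood last in both groups. ATP6V0C, a subunit of the ring that carries protons through the membrane, had 1, 0 and 1 reads in sh-JMJD1C 1 to 3 and 0, 0 and 1 reads in control-NC 1 to 3. With 0 reads seen, up to 3 could have been missed by counting, which is 2.06 scaled RPM in sh-JMJD1C 2, 6.4 in control-NC 1 and 1.22 in control-NC 2. ATP6V0C lies inside ENSG00000260272, a read-through gene on the same strand that also had 0 reads, and how reads shared by such genes were assigned is not given in the sources used here. FUCA1, a fucosidase of the lysosome, had 34 reads in all.

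**Figure D1:**
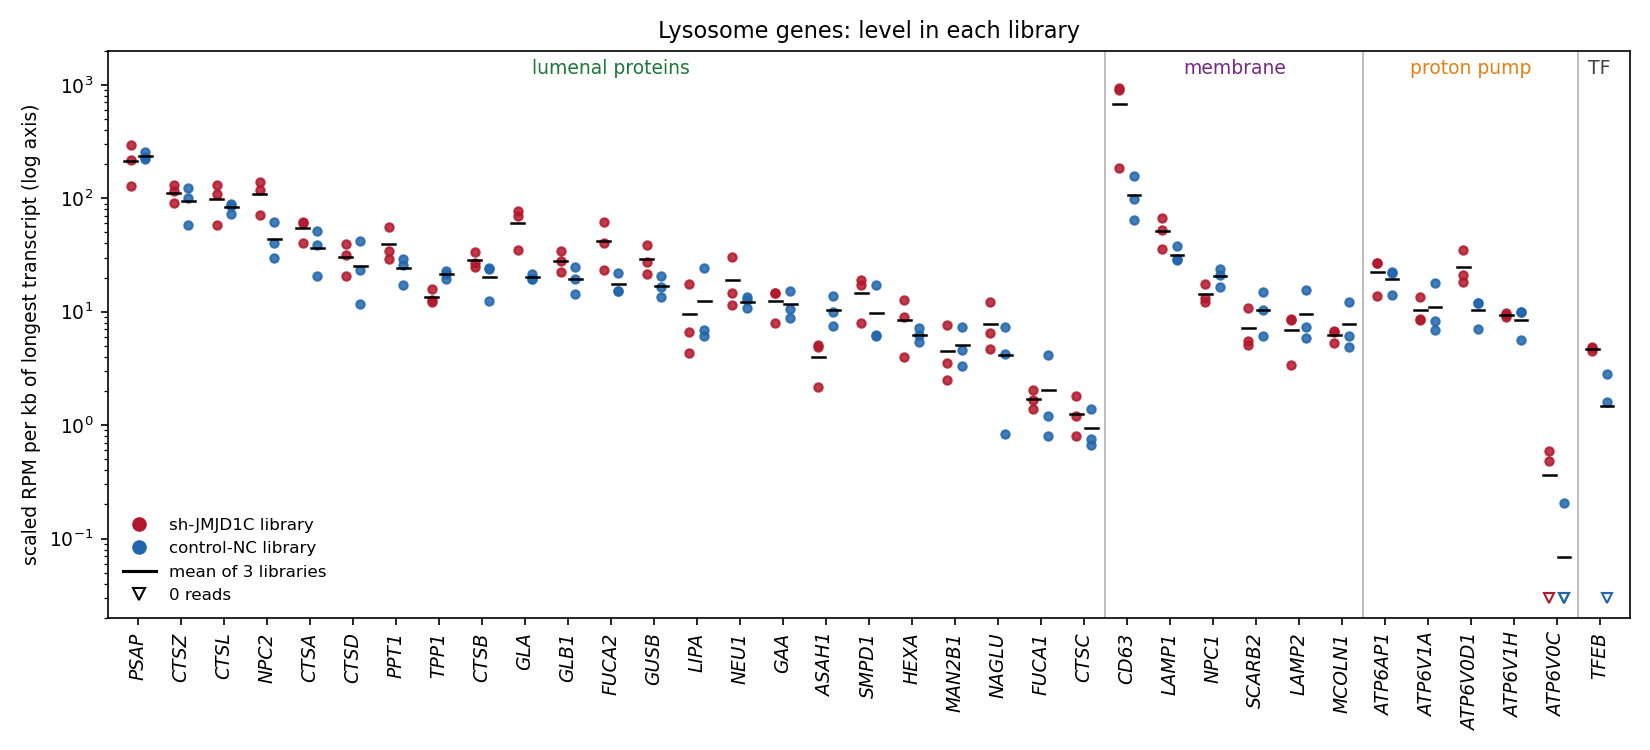
Scaled RPM per kilobase of the longest transcript (log axis) for the 35 lysosome genes, ordered within roles by the control-NC mean. Points are the 3 libraries of each group, sh-JMJD1C left of control-NC, horizontal marks are means and open triangles are libraries with 0 reads. CD63 averaged 675 in sh-JMJD1C libraries and 106 in control-NC libraries, and the pair of groups lay closer together for most other genes.

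Of the 35 genes, 33 had the 60 reads needed for the test on reads and 31 reached the mean FPKM of 0.5 needed for the test on FPKM. On FPKM, limma with Benjamini-Hochberg adjustment over 18383 genes called 0 of the 31, against 0.185% of all genes tested, and 5 of the 31 (16.1%) had an unadjusted p under 0.05, against 19.9% of all genes. On reads, limma-voom with adjustment over 11877 genes called 1 of the 33 (3.03%), CD63, against 5.52% of all genes, of which 3.71% were higher. Unadjusted p was under 0.05 for 7 of the 33 (21.2%), against 30.8% of all genes. Groups did not overlap for 10 of the 33 genes (30.3%), of which 8 were higher and 2 lower in sh-JMJD1C libraries, against 34.5% of all genes, 17.3% higher and 17.2% lower. Those higher made up 24.2% and those lower 6.06% of the 33. With reads over library totals in place of median-ratio factors, groups did not overlap for 4 of the 33 (12.1%), GLA and ATP6V0D1 higher and TPP1 and ASAH1 lower, against 32.7% of all genes.

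More of the fold changes lay above 0 than below it. Of the 33 genes, 24 (72.7%) had a log2 fold change above 0, against 47.2% of all genes, and their median was 0.42, against -0.08 over all genes. After removal of the trend over transcript length the medians were 0.34 for the lysosome genes and -0.01 for all genes, and on FPKM they were 0.25 and -0.16. No p-value is given for the set. Among roles, the lumenal proteins had a median log2 fold change on reads of 0.53 over 22 genes (17 above 0), the membrane proteins -0.25 over 6 genes (3 above 0) and the proton pump 0.22 over 4 genes (3 above 0). With library totals in place of median-ratio factors the median of all genes was -0.52, and those of the roles were 0.13, -0.69 and -0.21 in that order, so that the sign for the pump depends on the scaling. Relative to all genes the roles then stood at 0.65, -0.18 and 0.31, against 0.61, -0.16 and 0.30 with median-ratio factors. With trends over both length and GC content removed the lumenal, membrane and pump medians were -0.036, 0.29 and 0.38, so that the signs for lumenal and membrane proteins depend on that choice. The count of genes above 0 was then 19 of 33, and it was 17 with library totals and 20 with the length trend alone removed. The spread within each role was wider than these differences, from -1.46 to 1.49 among lumenal proteins, from -0.59 to 2.41 among membrane proteins and from -0.11 to 1.30 in the pump.

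**Figure D2:**
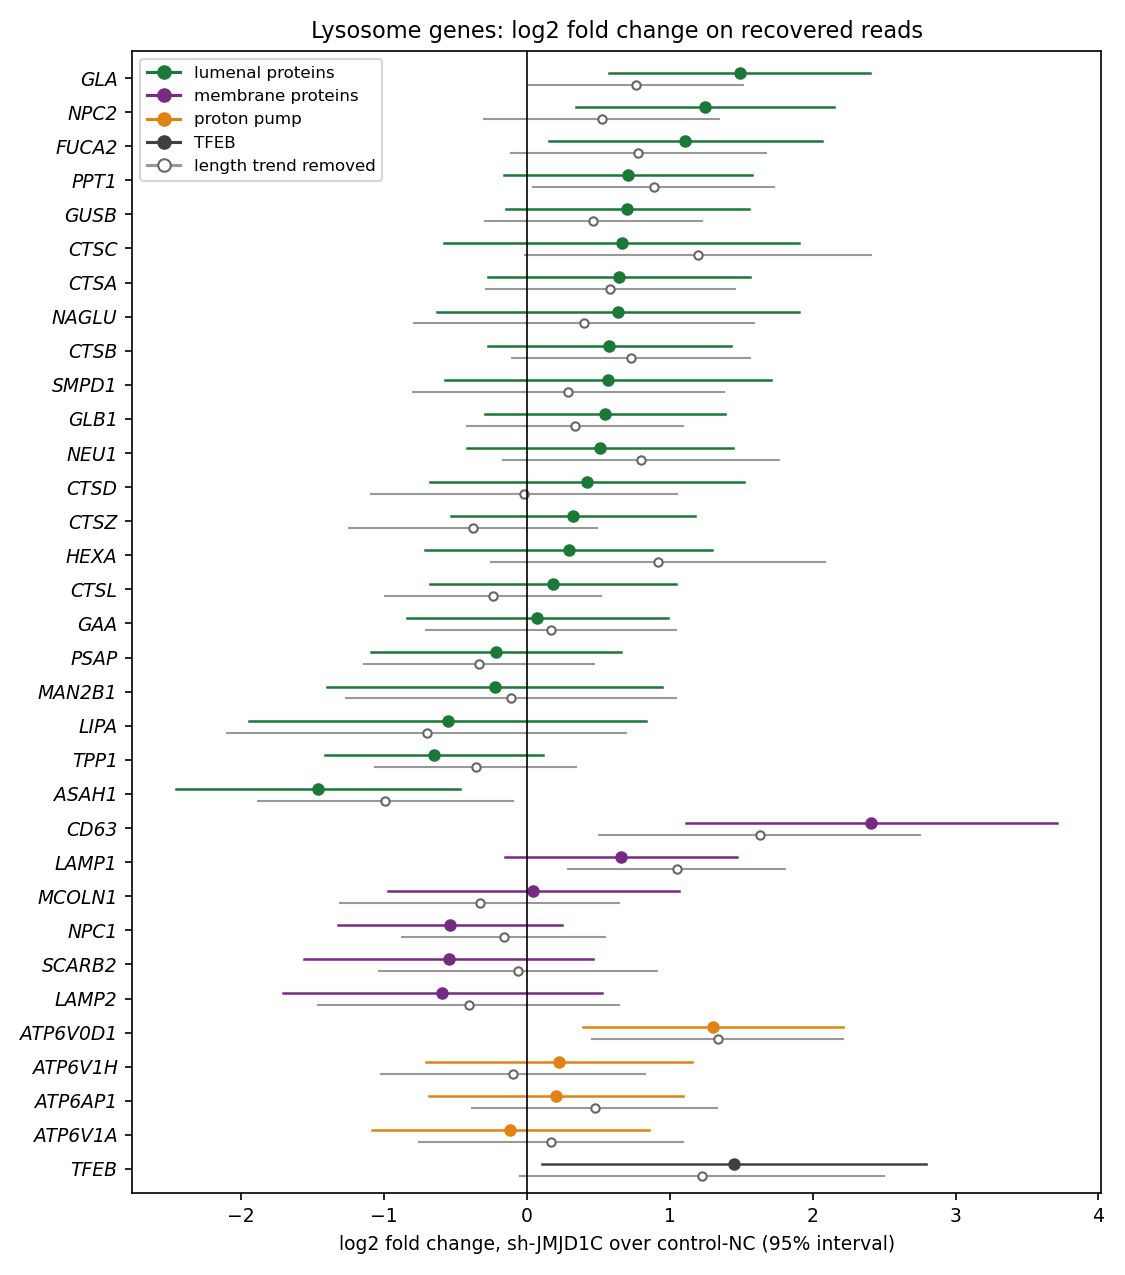
Log2 fold change of reads, sh-JMJD1C over control-NC, for the 33 tested lysosome genes, grouped by role and ordered by size. Filled points are the limma-voom values and open points those with the length trend removed, with 95% intervals. CD63 at 2.41 and ASAH1 at -1.46 mark the ends, and most intervals include 0.

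Of the membrane proteins CD63 rose and no other passed the test. CD63 (ENSG00000135404, hg38 chromosome 12, 55725323 to 55729707, minus strand) encodes a tetraspanin of late endosomes, lysosomes and secreted vesicles. It had 228.2, 1167.5 and 1100.5 scaled RPM in sh-JMJD1C 1 to 3, against 78.9, 121.6 and 192.3 in control-NC 1 to 3. The groups did not overlap on this scale, and sh-JMJD1C 1 lay much nearer to the controls than the other two did. Before median-ratio scaling they did overlap: sh-JMJD1C 1 had 240 RPM from 402 reads (exact 95% binomial interval 217 to 264), against 266 RPM from 787 reads in control-NC 3 (248 to 285). Counting error was widest in control-NC 1, with 68.0 RPM from 37 reads (47.8 to 93.7). CD63 rose by 2.41 on the log2 scale (SE 0.60, 95% interval 1.11 to 3.71, limma-voom adjusted p = 0.0411), a 5.32-fold difference. On FPKM the difference was 2.33 (SE 0.70, limma adjusted p = 0.168).

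The call for CD63 depended on single libraries and on the correction for length. Without sh-JMJD1C 2 the limma-voom adjusted p was 0.18, without sh-JMJD1C 3 it was 0.104, without control-NC 1 it was 0.139 and without control-NC 3 it was 0.0999. Without sh-JMJD1C 1 the log2 fold change was 3.12 (adjusted p = 0.00141). With the length trend removed it was 1.63 (adjusted p = 0.0873), and with the trends over length and GC content removed it was 1.23 (adjusted p = 0.177). The libraries with the most CD63, sh-JMJD1C 2 and 3, are also those with 15.7% and 18.5% of reads on RN7SL genes, and the part of that RNA in the result was not tested. CD63-AS1, an antisense gene that overlaps CD63, had 58 reads over the 6 libraries, against 4795 for CD63, and the use of strand in counting is not given in the sources used here.

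The other 5 membrane proteins had a median log2 fold change of -0.54, and none passed the test. LAMP1, a major glycoprotein of the lysosomal membrane, had 352.5, 272.8 and 188.9 scaled RPM in sh-JMJD1C 1 to 3 and 153.5, 197.2 and 150.03 in control-NC 1 to 3, with a log2 fold change of 0.66 (95% interval -0.16 to 1.47). LAMP2, its relative, which also takes part in autophagy, had the lowest fold change of this role. It had 34.1, 13.7 and 35.1 scaled RPM in sh-JMJD1C libraries and 23.5, 29.7 and 63.3 in control-NC libraries (log2 fold change -0.59, 95% interval -1.71 to 0.53), and the groups overlapped. NPC1, which exports cholesterol from the lysosome, had -0.54 (95% interval -1.32 to 0.25) and SCARB2, the receptor that carries glucocerebrosidase to lysosomes, had -0.55 (-1.56 to 0.47). MCOLN1, a calcium channel of the lysosome, had 0.04 (-0.97 to 1.06) on reads weighted by depth and -0.21 on FPKM, with 14.1 ± 1.89 scaled RPM in sh-JMJD1C libraries and 17.5 ± 8.95 in control-NC libraries (SD, n = 3 each). Summed over the 6 membrane genes the level was 752.8, 1566.5 and 1462 scaled RPM in sh-JMJD1C 1 to 3 and 428.6, 507.5 and 625.5 in control-NC 1 to 3. Without CD63 the sums were 524.5, 399.0 and 361.7 in sh-JMJD1C libraries and 349.7, 385.9 and 433.2 in control-NC libraries, and the groups overlapped.

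No lumenal protein passed the test on reads or on FPKM, and 7 of the 22 tested on reads (31.8%) had groups that did not overlap in scaled RPM, against 34.5% of all genes. GLA, GUSB, FUCA2, CTSB and NPC2 were above all controls in every sh-JMJD1C library, and TPP1 and ASAH1 were below. With library totals GLA, TPP1 and ASAH1 kept separate groups, while those of GUSB, FUCA2, CTSB and NPC2 overlapped. GLA (ENSG00000102393, chromosome X, 101397803 to 101408012, minus strand) encodes alpha-galactosidase A, whose loss causes Fabry disease. It had 49.96, 109.7 and 100.4 scaled RPM in sh-JMJD1C 1 to 3, against 27.7, 30.5 and 27.9 in control-NC 1 to 3, with a log2 fold change of 1.49 (SE 0.42, limma-voom adjusted p = 0.055). Its control-NC libraries were the most even among the genes given here library by library, at 28.7 ± 1.56 (SD, n = 3), and the lowest sh-JMJD1C library stood well above them. With the length trend removed the difference was 0.76 (adjusted p = 0.186). In the test on FPKM, GLA had 1.37 (limma adjusted p = 0.15), and it passed when protein-coding genes alone were tested (adjusted p = 0.0487). In that setting 914 of 10169 genes passed in all.

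NPC2 (chromosome 14, 74476192 to 74494177, minus strand) encodes the soluble partner of NPC1 that hands over cholesterol inside the lysosome. It had 101.6, 201.6 and 169.3 scaled RPM in sh-JMJD1C 1 to 3, against 42.7, 58.1 and 88.9 in control-NC 1 to 3 (log2 fold change 1.249, SE 0.41, limma-voom adjusted p = 0.0793). The lowest sh-JMJD1C library and the highest control-NC library were close to each other. With the length trend removed the difference was 0.53 (adjusted p = 0.383). NPC1, its membrane partner, had the value of -0.54 given above, and the difference between the pair was not tested. FUCA2, a fucosidase related to FUCA1, had 54.5, 96.0 and 145.4 scaled RPM in sh-JMJD1C libraries and 36.3, 36.2 and 52.0 in control-NC libraries (1.11, SE 0.44, adjusted p = 0.118). GUSB, the beta-glucuronidase that degrades glycosaminoglycans, had 54.5, 98.7 and 69.5 in sh-JMJD1C libraries and 34.1, 53.3 and 42.0 in control-NC libraries (0.70, SE 0.39, adjusted p = 0.233). For both genes sh-JMJD1C 1 was the library nearest to the controls.

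ASAH1 (chromosome 8, 18055992 to 18084998, minus strand) encodes acid ceramidase, which splits ceramide into sphingosine and a fatty acid. It had 28.95, 12.3 and 28.1 scaled RPM in sh-JMJD1C 1 to 3, against 42.7, 56.5 and 79.7 in control-NC 1 to 3. Its log2 fold change was -1.46 (SE 0.46, limma-voom adjusted p = 0.0678), the lowest of the 33 genes, and it was -0.99 (adjusted p = 0.154) with the length trend removed and -0.35 (adjusted p = 0.579) with the trends over length and GC content removed. TPP1, a peptidase that takes tripeptides off the ends of proteins, had 73.8, 59.0 and 56.9 scaled RPM in sh-JMJD1C libraries and 100.2, 106.1 and 90.7 in control-NC libraries (-0.65, SE 0.35, adjusted p = 0.221). The groups of TPP1 were separate, with 73.8 as the highest sh-JMJD1C library and 90.7 as the lowest control-NC library.

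Of the 6 cathepsins none passed the test, and CTSB was the one with separate groups. CTSB, a cysteine protease, had 105.0, 129.6 and 96.9 scaled RPM in sh-JMJD1C 1 to 3 and 91.7, 94.3 and 48.6 in control-NC 1 to 3 (log2 fold change 0.58, SE 0.39, limma-voom adjusted p = 0.322). The groups were separate by a narrow margin, with 96.9 in sh-JMJD1C 3 and 94.3 in control-NC 2. CTSA, a carboxypeptidase that also protects beta-galactosidase and sialidase, had 0.65, CTSC 0.66, CTSD, the main aspartic protease, 0.42, CTSZ 0.33 and CTSL 0.18 on the log2 scale, all with overlapping groups. Their 95% intervals all include 0, for example -0.68 to 1.04 for CTSL. Among the enzymes that act on sugar chains, GLB1, the beta-galactosidase, had 0.55, NEU1, the sialidase, 0.51, HEXA, a subunit of beta-hexosaminidase, 0.29, GAA, which degrades glycogen, 0.07, NAGLU, which acts on heparan sulfate, 0.64 and MAN2B1, the alpha-mannosidase, -0.22. Of the remaining lumenal genes, PPT1, which removes palmitate from proteins, had 0.71, SMPD1, the acid sphingomyelinase, 0.57 and LIPA, the acid lipase, -0.55. PSAP, with 369.0, 855.6 and 624.3 scaled RPM in sh-JMJD1C 1 to 3 and 644.0, 736.8 and 661.7 in control-NC 1 to 3, had -0.22 (95% interval -1.09 to 0.66).

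Summed over the lumenal genes the level was 1833, 2874 and 2433 scaled RPM in sh-JMJD1C 1 to 3 and 1926, 2173 and 1812 in control-NC 1 to 3. The groups overlapped, since sh-JMJD1C 1 lay between the controls. Without that library, 6 lysosome genes passed on reads in place of 1: CD63, GLA, FUCA2, NPC2 and ATP6V0D1 were higher and ASAH1 was lower (limma-voom). The count thus moved with that library, and without sh-JMJD1C 2, sh-JMJD1C 3, control-NC 1 or control-NC 3 no lysosome gene passed. The count over all genes moved as well. Leaving out single libraries gave 31 to 2305 calls on reads, against 656 of 11877 genes in the fit reported.

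**Figure D3:**
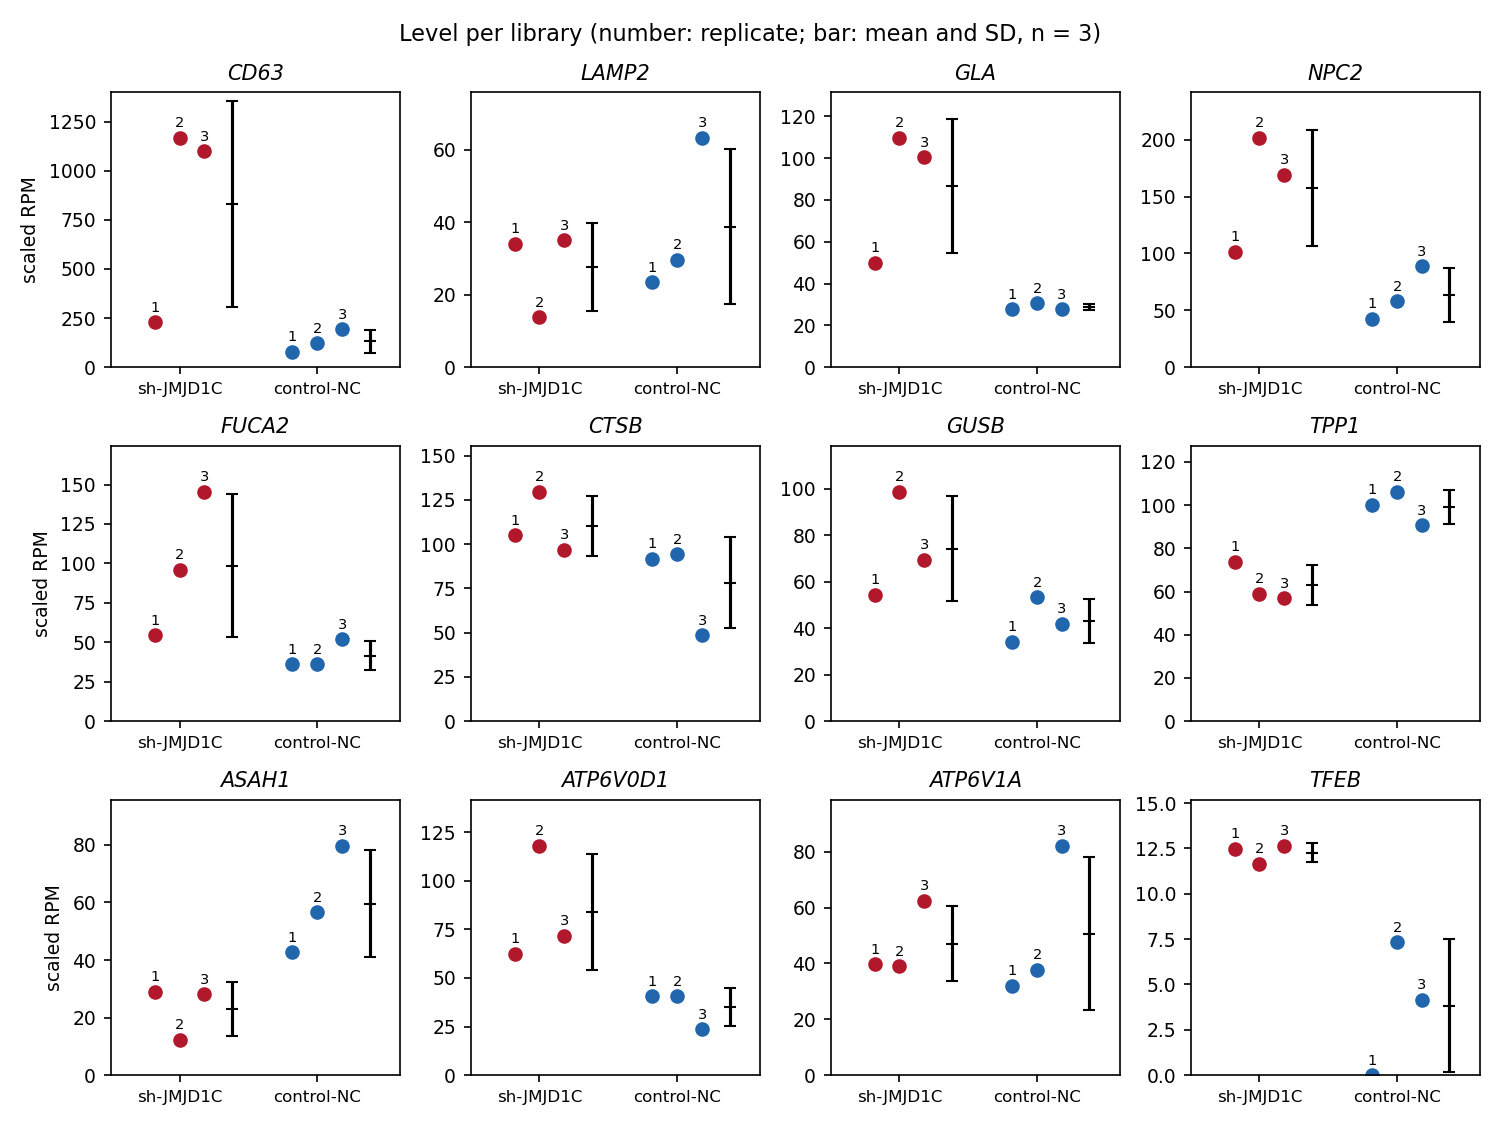
Scaled RPM on a linear axis for the 12 lysosome genes given library by library: those called, those with separate groups in scaled RPM and the ends of each role. Each panel shows 3 sh-JMJD1C libraries on the left and 3 control-NC libraries on the right, numbered by replicate, with the mean and SD beside them. CD63, GLA and NPC2 had sh-JMJD1C 1 nearest to the controls, and LAMP2 and ATP6V1A overlapped.

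In the proton pump, 1 of the 4 tested genes (25.0%) had separate groups in scaled RPM, against 34.5% of all genes, and none passed. ATP6V0D1 (chromosome 16, 67438014 to 67481237, minus strand) encodes the subunit that links the rotating stalk to the membrane ring. It had 62.4, 117.9 and 71.6 scaled RPM in sh-JMJD1C 1 to 3, against 40.5, 40.7 and 23.7 in control-NC 1 to 3, with a log2 fold change of 1.30 (SE 0.42, limma-voom adjusted p = 0.0726). With the length trend removed it was 1.34 (adjusted p = 0.0804), and with the trends over length and GC content removed it was 0.83 (adjusted p = 0.119). ATP6V1A, the catalytic subunit, had 39.7, 39.1 and 62.5 scaled RPM in sh-JMJD1C libraries and 32.0, 37.8 and 82.1 in control-NC libraries. Its log2 fold change was -0.11 (SE 0.44, adjusted p = 0.876), with the opposite sign once the length trend was removed (0.17). ATP6V1H, a regulatory subunit, had 0.23 and ATP6AP1, an accessory protein of pump assembly, had 0.20, with overlapping groups. Summed over the 5 pump genes the level was 248.6, 300.3 and 218.4 scaled RPM in sh-JMJD1C 1 to 3, against 196.2, 191.9 and 193.0 in control-NC 1 to 3, and the sums did not overlap. With library totals they did, at 261.2, 228.2 and 187.3 RPM in sh-JMJD1C libraries and 169.0, 235.5 and 266.8 in control-NC libraries.

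TFEB was a low gene, with 22, 17 and 18 reads in sh-JMJD1C 1 to 3 and 0, 18 and 17 in control-NC 1 to 3. That is 12.5, 11.7 and 12.6 scaled RPM in sh-JMJD1C libraries, against 0, 7.32 and 4.15 in control-NC libraries, and the groups were separate on this scale. With library totals they overlapped, at 13.1, 8.86 and 10.8 RPM in sh-JMJD1C libraries and 0, 8.98 and 5.74 in control-NC libraries. The 0 of control-NC 1 allows up to 3 reads, or 6.4 scaled RPM. The log2 fold change was 1.45 (SE 0.62, limma-voom adjusted p = 0.139), and the gene was below the FPKM needed for the other test.

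The motif that TFEB is known to bind was looked up in the promoters of these genes, from 250 bases before to 50 bases after the start in RefSeq on GRCh38.p14. A promoter was at hand for 27 of the 35 genes. CACGTG, which reads the same on both strands, was in 8 of the 27 (29.6%), against 7.43% of 27305 promoters. The longer palindrome TCACGTGA, which contains it, was in 5 (18.5%) against 1.04%. Shown here are windows around CACGTG for CD63, which passed the test on reads, for ATP6V0D1, the highest of the pump, for LAMP1, with the most copies of CACGTG, and for GAA and MCOLN1, each of which holds the longer palindrome more than once, with CACGTG in capitals:
CD63, chr12:55729172-55729201, minus strand: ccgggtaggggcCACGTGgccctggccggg
ATP6V0D1, chr16:67481199-67481228, minus strand: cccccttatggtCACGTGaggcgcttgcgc
LAMP1, chr13:113297199-113297228, plus strand: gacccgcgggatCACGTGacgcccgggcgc
GAA, chr17:80101538-80101567, plus strand: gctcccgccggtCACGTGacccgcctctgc
MCOLN1, chr19:7522571-7522600, plus strand: accagaggcggtCACGTGaggggctctggg

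The CD63 window begins its core 180 bases before the start and matches CACGTG but not the longer palindrome, while the ATP6V0D1 window, 59 bases before the start, matches TCACGTGA. The other 3 genes that hold the core are CTSA, CTSD and NEU1. The 8 genes with CACGTG had a median log2 fold change on reads of 0.58, and all 8 were above 0, from 0.04 in MCOLN1 to 2.41 in CD63. With the length trend removed MCOLN1 had -0.33 and CTSD -0.02, and the rest of the 8 stayed above 0. On FPKM MCOLN1 had -0.21 and the rest of the 8 were above 0. The 17 tested genes whose promoter was searched without a match had a median of 0.55, and 12 of them were above 0. GAA and MCOLN1 had values of 0.07 and 0.04. A match describes letters in this window and not binding, and no binding was measured here.

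The fold changes followed transcript length, for lysosome genes as for others. Across genes, Spearman's rho between the longest transcript and the log2 fold change on reads was -0.439 over 33 lysosome genes and -0.46 over 11857 genes, given as a description since all points share the same 6 libraries. CD63, with a longest transcript of 1233 nt, and GLA and NPC2, with 1424 and 1436 nt, are the shortest of the 33, and ASAH1 has 5740 nt. TFEB and ATP6V0D1, with 2595 and 3390 nt, had 1.22 and 1.34 with the length trend removed. With the GC trend also taken out they had 0.68 and 0.83, GLA had 0.70 and NPC2 0.81. In the fit with the length trend alone removed, no lysosome gene passed, against 3.17% of all genes, and rho over the lysosome genes was 0.0127. LAMP1, the highest of the other membrane genes, had 1.05 there (limma-voom adjusted p = 0.0952).

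**Figure D4:**
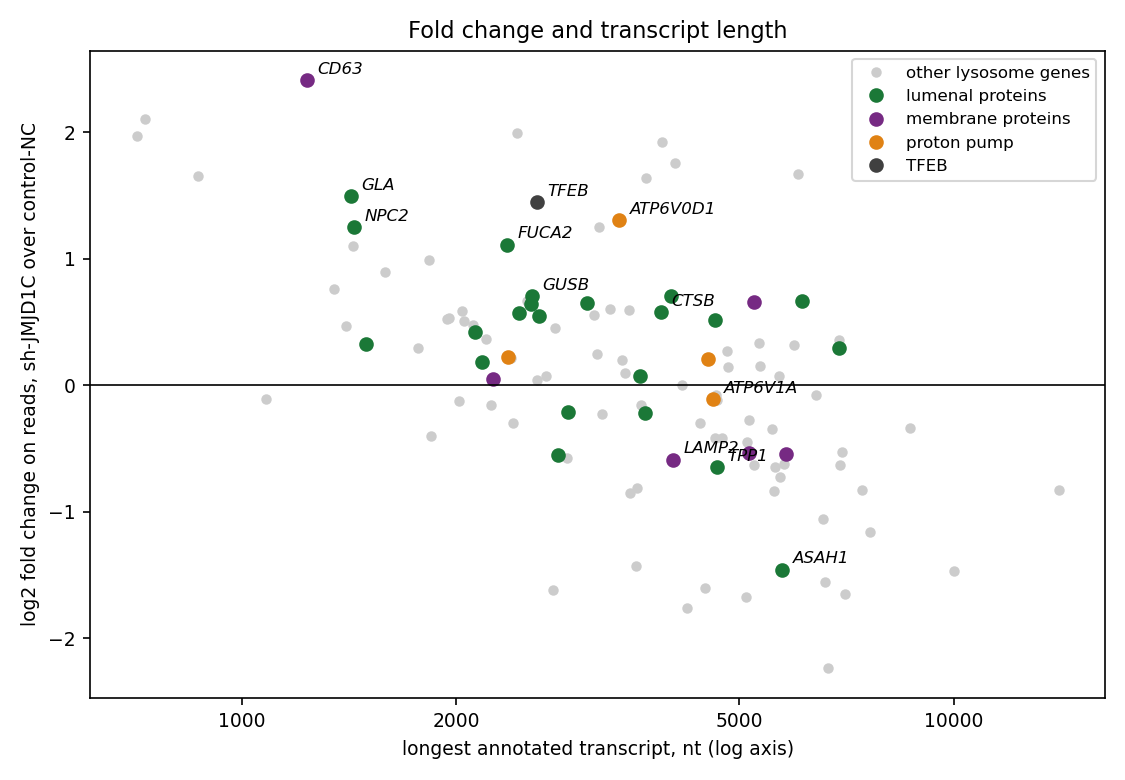
Log2 fold change on reads, sh-JMJD1C over control-NC, against the longest annotated transcript in nt (log axis). Coloured points are the 33 tested lysosome genes by role and grey points the 80 tested genes of a wider lysosome list. Short transcripts such as CD63, at 1233 nt and 2.41, lie to the upper left, and ASAH1, at 5740 nt and -1.46, to the lower right.

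In a wider list of 95 other lysosome genes, values above and below 0 were equally many. On reads, 80 could be tested, 40 had a value above 0 and 40 below, and the median was -0.04. By role, 17 of 25 lumenal genes were above 0 (median 0.27), 5 of 17 membrane genes (median -0.42), 7 of 13 pump genes (median 0.00), 3 of 10 genes for the sorting of enzymes (median -0.29) and 8 of 15 regulators (median 0.14). On reads without such corrections, the lumenal median thus lay above and the membrane median below that of all genes in both lists, with no test of that difference. With length and GC trends removed, the order was reversed for the 33 lysosome genes, at -0.03 and 0.30 relative to all genes. Medians with those trends removed are not given here for the wider list. One gene of the 80 passed, against 5.52% of all genes, and none of 78 passed on FPKM. It was GM2A, the activator that presents ganglioside to beta-hexosaminidase. GM2A had 40.3, 34.3 and 25.3 scaled RPM in sh-JMJD1C 1 to 3, against 2.13, 13.0 and 7.575 in control-NC 1 to 3. The value of control-NC 1 came from 1 read. GM2A rose by 1.92 on the log2 scale (SE 0.51, limma-voom adjusted p = 0.0494) and by 2.08 with the length trend removed (adjusted p = 0.0449), and on FPKM its adjusted p was 0.143. With library totals it had 1.46 (adjusted p = 0.107), and the adjusted p was 0.0563 with no minimum of reads, 0.0506 at 200 reads or more and 0.0524 with GENCODE 29 lengths alone. Leaving out single libraries gave adjusted p-values of 0.0412 to 0.229, and the call was lost without sh-JMJD1C 2, sh-JMJD1C 3, control-NC 1 or control-NC 3. In all, the call for GM2A was lost in 9 of 15 alternatives on reads. HEXA, whose product works with that of GM2A, had a log2 fold change of 0.29 (95% interval -0.71 to 1.30).

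Many lysosome genes share their place with others. Of the 35, 22 overlap another annotated gene and 16 of these overlap one on the opposite strand, so that reads of the partners cannot be told apart if strand was not used. MCOLN1, with 158 reads over the 6 libraries, overlaps PNPLA6 on the same strand, which had 945, and PPT1, with 1425 reads, overlaps CAP1 on the opposite strand, which had 2348. GLA lies inside RPL36A-HNRNPH2, a read-through gene on the opposite strand, which had 0 reads. Values of MCOLN1 and PPT1 are uncertain for that reason.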

How the data were processed

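The authors deposited FPKM per gene and library, with columns for rising shares of the reads, per the file headers, and the full-library column was used. The submitters' processing notes list Bowtie 0.12.2 and the build hg38. How genes were counted, on which annotation and with what use of strand is not given in the sources used here. RNA was extracted with TRIzol and libraries were made with a VAHTS Universal V6 kit, per the labels' protocols.

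Gene names and coordinates came from GENCODE 29 and the gene name table. Whole reads were recovered from FPKM, the library total and gene length. The summed length of all GENCODE 29 transcripts fitted 93.9% of 29280 detected genes, and a searched length was used for the others, among them CTSA, GLA, PPT1 and TPP1. Of values under 10000 reads, 100.0% were whole within 0.05. The deposited FPKM thus divide by all transcripts together, so levels are compared between genes per kilobase of the longest transcript.

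The main fit used limma 3.58.1 in R 4.3.3 with the trend option on log2(scaled FPKM + 0.5), which understates changes of low genes, for the 18383 genes whose mean FPKM reached 0.5. Median-ratio factors came from genes whose mean FPKM reached 1. The second fit used limma-voom on recovered reads of 11877 genes with at least 60 reads, scaled by median-ratio factors. Tests were two-sided, on group alone, with Benjamini-Hochberg adjustment at 0.05 over all genes tested. Length and GC trends were lowess curves (span 0.3) per library. Simulated data held 200 changed genes, all with many reads, at a fixed spread between libraries (dispersion 0.05) and with no length or GC trend. There the fit on FPKM recovered 64% of 4-fold and 92% of 8-fold changes, with 30 false calls among 17599 genes. The fit on reads recovered 100% of each, with 9 false calls among 11654. The spread of the real libraries was not copied, so these shares do not say what could be missed here. Intervals of single libraries are exact binomial at 95% and, like the floor of 3 reads, cover counting error only.

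Every gene of the list is described by role. Values per library are given for genes called in either fit, genes with separate groups, and the highest and lowest of each role, and LAMP1, PSAP and ATP6V0C were added after their values were seen. The genes and lists were chosen with earlier results of these data known. Alternatives were other pseudocounts, filters, scalings and array weights, a replicate block, the length and GC corrections, and leaving out libraries. Per-kilobase levels, reads restricted to GENCODE 29 lengths and the overlap of groups on library totals were added after seeing the data.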

Additional observations from a re-analysis of the deposited data

How the results depend on the processing

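On FPKM, 0 of 31 lysosome genes passed in the fit reported, against 34 of 18383 genes in all. With protein-coding genes alone 2 of 31 passed (GLA and CD63), against 914 of 10169 in all. Leaving out single libraries gave 0 to 2 lysosome genes and 0 to 692 genes in all. JMJD1C passed with protein-coding genes alone (-1.83, adjusted p = 0.0214), and leaving out single libraries gave -2.05 to -1.53. On reads, 1 gene passed in the fit reported, 2 with library totals (CD63 and ASAH1), 2 without both libraries numbered 1 (GLA and CD63), 0 with quantile normalization, 0 with the length trend removed and 0 with length and GC trends removed. Leaving out single libraries gave 0 to 6. The cause was not tested. Median log2 fold changes of lumenal, membrane and pump genes were 0.13, -0.69 and -0.21 with library totals and -0.036, 0.29 and 0.38 with length and GC trends removed, and the membrane median was -0.53 at 200 reads or more. Leaving out single libraries gave lumenal medians of 0.13 to 0.60, membrane medians of -0.24 to -0.03 and pump medians of 0.11 to 0.41. Leaving out single libraries gave ATP6V1A values of -0.37 to 0.29 on FPKM and -0.32 to 0.26 on reads. It changed sign on FPKM without sh-JMJD1C 1 (0.03), sh-JMJD1C 2 (0.10) or control-NC 3 (0.29), and on reads with length (0.17) or length and GC (0.69) removed and without sh-JMJD1C 2 (0.03) or control-NC 3 (0.26). LAMP2 changed sign with length and GC removed (0.23). CD63 was above 0 in all 16 alternatives on FPKM and all 15 on reads, from 1.23 to 3.12. Over all genes, FPKM alternatives called 0 to 914 against 34, and read alternatives 31 to 4260 against 656. JMJD1C on reads was -1.19 (adjusted p = 0.0557) with length and GC removed, and leaving out single libraries gave adjusted p-values of 0.00661 to 0.115.

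Deviations of libraries with the same number correlated at 0.0725, 0.40 and 0.478 across genes. Pairs with different numbers ran from -0.547 (sh-JMJD1C 3 with control-NC 2) to 0.135 (sh-JMJD1C 1 with control-NC 2). Each control-NC library thus correlated best with the sh-JMJD1C library of its number, while sh-JMJD1C 1 correlated best with control-NC 2. The labels state no pairing, and the fits reported used group alone. Whether the numbers pair the libraries cannot be settled here. With a replicate block, 6 lysosome genes passed on reads (GLA, FUCA2, NPC2, CD63, ATP6V0D1 and ASAH1) among 4260 genes in all, and 0 passed on FPKM. The depth of control-NC 1, 544450 reads, limits low genes such as TFEB.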
